A study of Mus musculus with 9 samples.

Results

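The collagen chain genes expressed outside cartilage were followed in the dermis of mouse ears. They were taken as every row of the count table whose symbol has the form Col, number, a, number, without the 8 chains that mark cartilage (Col2a1, Col9a1, Col9a2, Col9a3, Col10a1, Col11a1, Col11a2 and Col27a1). This left 36 of 44 collagen chain genes, out of 52550 genes in the table. By type they were 7 fibrillar, 8 network-forming, 6 beaded, 1 anchoring and 6 FACIT genes (fibril-associated collagens with interrupted triple helices), with 4 transmembrane, 2 multiplexin and 2 other genes. RNA was sequenced in 9 libraries, 3 from each of 3 groups of C57BL/6 mice (C57BL/6J in the methods) aged 8 weeks, whose genotype the labels give as "wide type" and which were male per the study's methods. VAS+H2O mice had vaseline on the ear for 5 days and water by gavage for 10 days. IMQ+H2O mice had imiquimod cream, which produces a psoriasis-like dermatitis, for 5 days in place of vaseline. IMQ+XYF mice had imiquimod cream and, in place of water, a decoction of Xiao-Yin-Fang (XYF), a Chinese herbal formula. The decoction was given as 200 μl by gavage, at the study's high dose of 23.3 mg/g. The methods give gavage as daily, whereas the figure legend of the ear model gives 2 times a day. Water or XYF was given for 5 days before the cream and went on with it. RNA came from intact dermal sheets of a pair of mice per the methods, which do not say whether each library pooled them. A figure legend of the study gives n = 3 for each group without naming the unit. Whether the libraries are separate animals is thus unknown, and p-values may measure technical spread only.

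Collagens are proteins of 3 chains wound into a triple helix, and most of them are secreted. Fibrillar types build the load-bearing fibres of the dermis, FACIT types sit on the surface of those fibres, and beaded collagen VI forms fine filaments around cells. Network-forming types make the sheets of basement membranes under epidermis and around vessels, and collagen VII anchors the epidermal basement membrane to the dermis. Dermal fibroblasts make most of the fibrillar and beaded chains, whereas endothelial cells, pericytes and keratinocytes make much of the basement membrane.

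Total counts ran from 28756305 to 79836881 per library, and the 36 genes had at least 4 counts in every library. Levels are given as CPM, a gene's share of the counts of its library scaled by TMM factors. The fibroblast markers fit the label, with all 8 detected in every library and summed levels of 7631 to 8486 CPM in VAS+H2O, 5731 to 7022 in IMQ+H2O and 6148 to 7039 in IMQ+XYF. Most of this sum was Dcn, at 6137, 6282 and 6142 CPM in VAS+H2O. In IMQ+H2O against VAS+H2O, 6 of the 8 markers were lower and 2 higher. The ear sheets also held cartilage, muscle, vessel and keratinocyte RNA in amounts that differed between libraries. IMQ+XYF replicate 2 stood apart, with a cartilage marker sum of 3358 CPM, the highest of the 9 libraries, an endothelial marker sum of 407 CPM, the lowest, and the lowest level of 13 of the 36 collagens. In such bulk samples, fewer cells of a type and less RNA per cell cannot be told apart.

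In the control dermis the 3 major fibrillar genes dominated. Per kilobase of exon, Col1a1 stood at 555 ± 232 CPM per kb (SD, n = 3). Col3a1 stood at 539.6 ± 235 and Col1a2 at 399.9 ± 134. Within libraries, the log2 ratio of Col1a1 to Col1a2 per kb was 0.25, 0.49 and 0.55, above 0 in each. That of Col3a1 to Col1a1 was −0.17, 0.11 and −0.11, so the order of these genes differed between libraries. Col6a1 followed at 311 ± 2.49 and Col8a1 at 180.4 ± 48.3 CPM per kb. The lowest was Col6a4 at 0.0235 ± 0.0117 CPM per kb. The first 3 ranks were held by the same 3 genes in IMQ+H2O. In IMQ+XYF, Col6a1 at 243 ± 56.1 CPM per kb lay above Col1a2 at 211 ± 87.2 by mean, though not in every library. Col8a1 held rank 5 of 36 in VAS+H2O, rank 12 in IMQ+H2O at 28.9 ± 9.62 CPM per kb, and rank 6 in IMQ+XYF at 63.8 ± 26.3. Exon lengths join all annotated transcripts of a gene and can be too long where some retain introns, which lowers the value per kb.

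IMQ+H2O was compared with VAS+H2O for the change by imiquimod, IMQ+XYF with IMQ+H2O for the change by XYF, and IMQ+XYF with VAS+H2O for both together. Each pair of comparisons shares a group of libraries, so their values are given side by side and are not independent. A gene was called where edgeR's quasi-likelihood test gave a Benjamini-Hochberg adjusted p of 0.05 or lower and a log2 fold change of at least 1 in size, the limits named in the study's methods. All 36 collagens were tested. By imiquimod, Col8a1 and Col4a5 fell and none rose, 2 of 36, where 0.994% of all tested genes were called in either direction and 0.348% were called lower. The median log2 fold change of the 36 was −0.64, beside −0.02 over all genes. An unadjusted p of 0.05 or lower was reached by 16 collagens that were lower and 2 that were higher, beside 10.8% and 10.1% of all genes. The groups did not overlap for 15 that were lower and 3 that were higher, beside 16.5% and 15.1% of all genes. DESeq2 called 5 of 36 (Col4a1, Col4a5, Col4a6, Col8a1 and Col8a2), where it called 3.88% of the genes it tested.

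By XYF no collagen was called by edgeR, where 0.00892% of all genes were called, 0.00446% in each direction. DESeq2 called 1 of 36, Col8a2, where it called 1.14% of the genes it tested. The median log2 fold change of the 36 was −0.19, beside 0.01 over all genes, with 12 higher and 24 lower. At an unadjusted p of 0.05 or lower, 6 were higher and 2 lower, beside 6.35% and 5.39% of all genes. The groups did not overlap for 5 higher and 2 lower collagens, beside 9.22% and 8.74% of all genes. For IMQ+XYF against VAS+H2O, Col4a3 and Col4a5 were called lower and none higher, where 1.20% of all genes were called in either direction, 0.695% higher and 0.508% lower. There 13 collagens reached an unadjusted p of 0.05 or lower, each of them lower, beside 8.76% of all genes in that direction and 9.58% in the other. The groups did not overlap for 12 that were lower and 0 that were higher, beside 10.3% and 11.7% of all genes. DESeq2 called 6 of 36, each lower (Col4a3, Col4a6, Col5a1, Col6a6, Col8a1 and Col14a1), where it called 3.46% of the genes it tested.

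**Figure D1:**
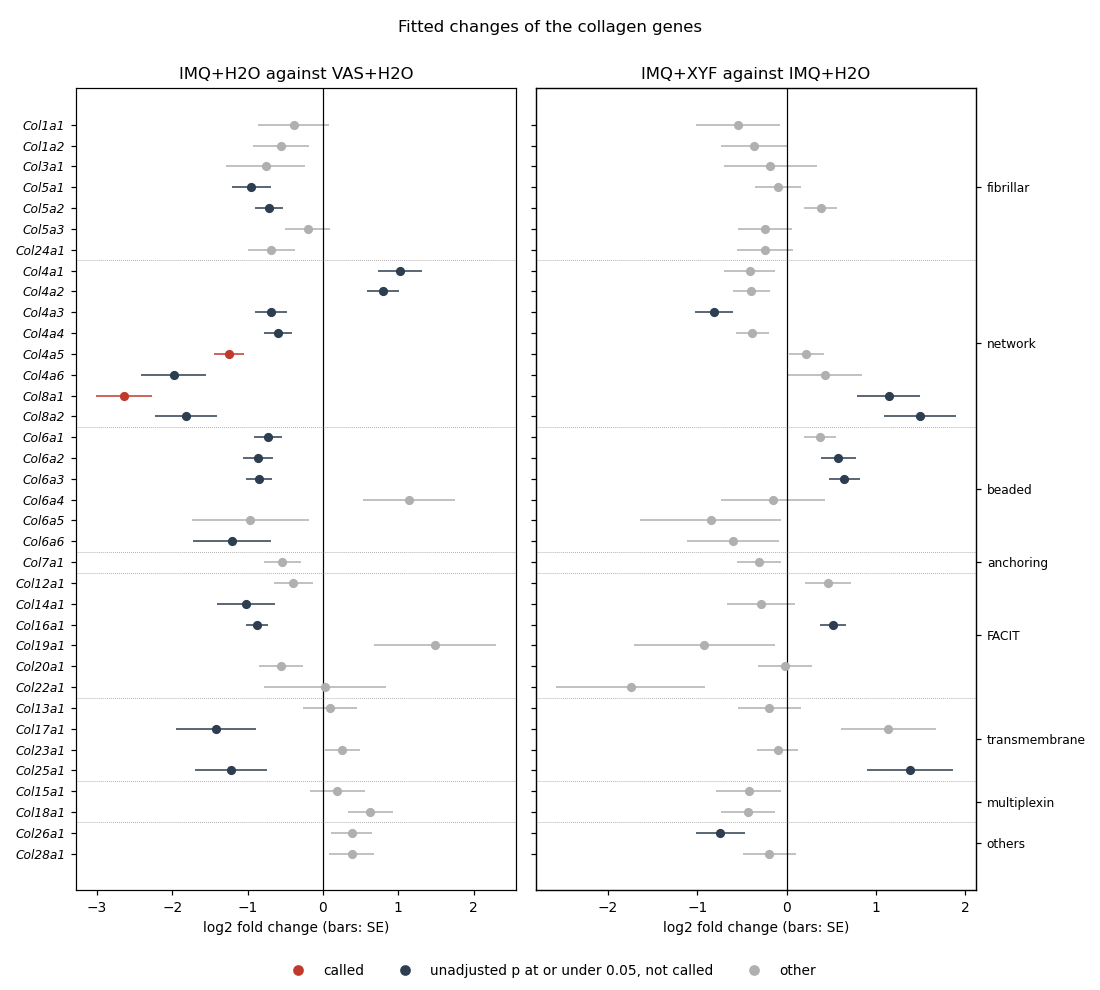
Log2 fold change (x axis) of each of the 36 collagen genes (y axis, grouped by type) from the edgeR fit, for IMQ+H2O against VAS+H2O (left) and IMQ+XYF against IMQ+H2O (right). Points are fitted values and bars are standard errors, and red marks the called genes, Col8a1 at −2.64 and Col4a5 at −1.25 on the left and none on the right.

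The fibrillar genes were lower in IMQ+H2O than in VAS+H2O in 7 of 7 fitted values, with a median log2 fold change of −0.68, but none was called. Collagen I, the principal fibre of the dermis, is made of 2 Col1a1 chains and 1 Col1a2 chain. Col1a1 stood at 1989, 3947 and 4982 CPM in VAS+H2O, 1641, 3306 and 3401 in IMQ+H2O and 1585, 1038 and 3089.9 in IMQ+XYF. The 3 groups overlapped, and replicate 1 of VAS+H2O lay below IMQ+H2O replicates 2 and 3. The log2 fold change was −0.39 ± 0.47 (SE; adjusted p = 0.673, edgeR) by imiquimod and −0.55 ± 0.47 (adjusted p = 0.656) by XYF. Left-out libraries moved these between −0.69 and −0.09 and between −1.08 and −0.23, the last end without IMQ+XYF replicate 2. Col1a2 stood at 3165, 5303 and 6439 CPM in VAS+H2O, 2155, 4012 and 3943 in IMQ+H2O and 2144, 1865 and 3865 in IMQ+XYF. Its groups overlapped in the same way. Its log2 fold changes were −0.56 ± 0.37 by imiquimod (adjusted p = 0.415, edgeR) and −0.36 ± 0.37 by XYF (adjusted p = 0.716).

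Col3a1 encodes the single chain of collagen III, which forms thinner fibres in skin and vessel walls. It stood at 2649, 6352 and 6889 CPM in VAS+H2O, 1622, 3837 and 3940.5 in IMQ+H2O and 2056, 1547 and 4687 in IMQ+XYF. The lowest VAS+H2O library again lay within the range of the other groups. edgeR gave a log2 fold change of −0.76 ± 0.52 by imiquimod (adjusted p = 0.435, edgeR) and −0.18 ± 0.52 by XYF (adjusted p = 0.908), and the second turned to 0.13 without IMQ+XYF replicate 2 and to 0.04 without IMQ+H2O replicate 3. Against VAS+H2O, IMQ+XYF had log2 fold changes of −0.93 ± 0.47 for Col1a1, −0.92 ± 0.37 for Col1a2 and −0.94 ± 0.52 for Col3a1, none of them called (adjusted p of 0.337, 0.234 and 0.389, edgeR).

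Collagen V is a minor partner that is built into collagen I fibres and limits their width. Its Col5a1 chain stood at 452, 647 and 601 CPM in VAS+H2O, 209.5, 333 and 335 in IMQ+H2O and 199, 266 and 358 in IMQ+XYF. Every VAS+H2O library lay above every library of the other groups. The fitted log2 change was −0.95 ± 0.26 by imiquimod (adjusted p = 0.0972, edgeR), −0.09 ± 0.26 by XYF and −1.05 ± 0.26 for IMQ+XYF against VAS+H2O (adjusted p = 0.0769), short of a call, while DESeq2 called the last (adjusted p = 0.00496). Col5a2, the partner chain, stood at 658, 634 and 630.1 CPM in VAS+H2O, 325, 433 and 409.8 in IMQ+H2O and 373, 616 and 532 in IMQ+XYF. VAS+H2O was again above IMQ+H2O in every library, while IMQ+XYF replicate 1 lay in the IMQ+H2O range and replicates 2 and 3 between the groups. Its log2 fold change was −0.72 ± 0.19 by imiquimod (adjusted p = 0.0885, edgeR) and 0.38 ± 0.18 by XYF.

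The other fibrillar genes were lower in level. Col5a3, a further collagen V chain, ranged from 99.1 to 223 CPM in VAS+H2O, 125 to 149.8 in IMQ+H2O and 85.7 to 157 in IMQ+XYF, and the groups overlapped. Col24a1, a minor fibrillar chain known from bone, ranged from 13.5 to 28.3, 10.2 to 15.3 and 8.38 to 14.9 CPM. Its log2 fold change for IMQ+XYF against VAS+H2O was −0.93 ± 0.31 (adjusted p = 0.16, edgeR).

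The proportions of fibrillar chains were compared as log2 ratios of CPM per kb, in 33 exact permutation tests over 11 chain pairs and 3 comparisons. With 3 libraries a group, the smallest two-sided p such a test can give is 0.1, and the adjusted p was never below 0.22. The ratio of Col3a1 to Col1a1 was −0.17, 0.11 and −0.11 in VAS+H2O, −0.60, −0.37 and −0.37 in IMQ+H2O, and −0.20, −0.01 and 0.02 in IMQ+XYF. IMQ+H2O lay below both other groups in every library (p = 0.1 for each, exact permutation, adjusted p = 0.22). The ratio of Col1a1 to Col1a2 overlapped between the groups in each comparison.

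**Figure D2:**
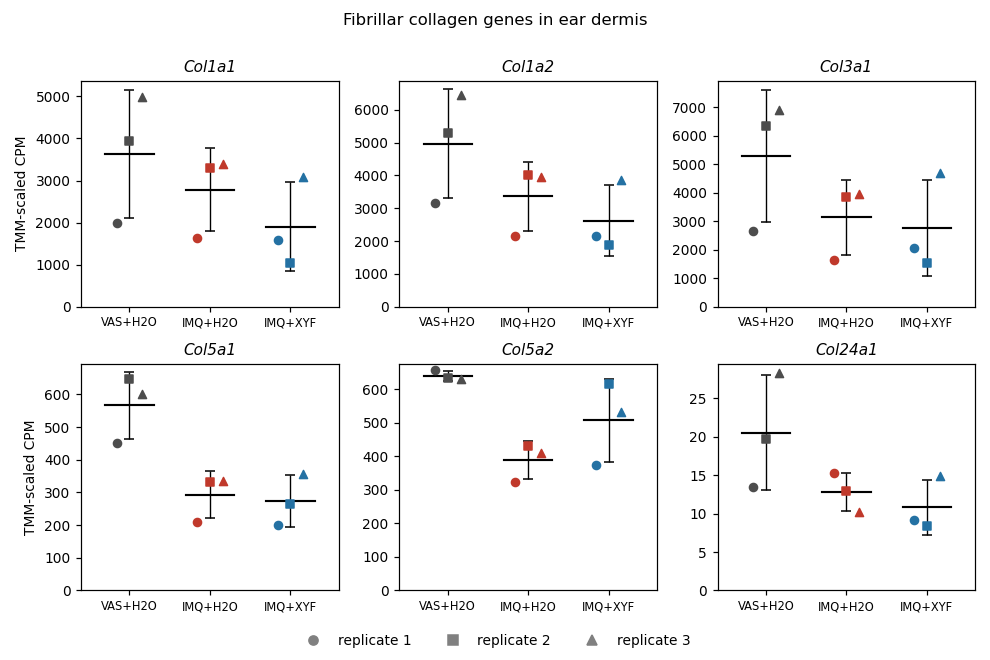
TMM-scaled CPM (y axis, from 0) of 6 fibrillar collagen genes in the 9 libraries, by group (x axis). Points are libraries, shaped by replicate number, and the line and bar are the mean and SD of 3 libraries. Col1a1, Col1a2 and Col3a1 overlap between groups, while the 3 VAS+H2O libraries of Col5a1 lie above the 6 others.

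The network-forming genes had fitted changes in both directions by imiquimod, with the ubiquitous collagen IV chains higher and the other 6 genes lower. Col4a1 and Col4a2 make the collagen IV of nearly all basement membranes, those of vessels included. Col4a1 stood at 226, 307 and 348 CPM in VAS+H2O, 532, 653 and 608 in IMQ+H2O and 505, 253 and 586 in IMQ+XYF. Every IMQ+H2O library was above every VAS+H2O library, and IMQ+XYF replicate 2 was within the VAS+H2O range while its other libraries were not. On the log2 scale the change was 1.02 ± 0.29 by imiquimod (adjusted p = 0.108, edgeR), which was not called, though DESeq2 called it (adjusted p = 0.0152), and so did edgeR without IMQ+XYF replicate 2 (adjusted p = 0.0204). Col4a2 stood at 274, 315 and 360.4 CPM in VAS+H2O, 497, 596 and 552 in IMQ+H2O and 426, 290.2 and 535 in IMQ+XYF. It had the same order of groups, with a log2 fold change of 0.79 ± 0.21 by imiquimod (adjusted p = 0.0945, edgeR). By XYF the values were −0.41 ± 0.29 for Col4a1 and −0.40 ± 0.21 for Col4a2.

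The endothelial markers moved with these chains. By imiquimod 6 of 6 were higher, with a median log2 fold change of 0.73 and none called. Their summed level was 504 to 833 CPM in VAS+H2O, 1065 to 1161 in IMQ+H2O and 407 to 1019 in IMQ+XYF, with none at 0 in any library. IMQ+XYF replicate 2 was the lowest of its group in both. The adipocyte marker sum did not overlap between these groups either, at 283 to 483 CPM in VAS+H2O and 654 to 802 in IMQ+H2O. Most of that sum was Fabp4, at 238, 326 and 399 CPM in VAS+H2O and 747, 577 and 585 in IMQ+H2O. Of the 5 adipocyte markers, 3 were higher by imiquimod and 2 lower. Fabp4 was the only 1 whose groups did not overlap. The smooth muscle and pericyte markers had a median log2 fold change of 0.78 by imiquimod, with 4 of 6 higher and 2 lower. By XYF their median was −0.88, with 5 lower and 1 higher. Their sum overlapped, at 683 to 1077 CPM in VAS+H2O and 957 to 1103 in IMQ+H2O. The part of any of these cell types in the Col4a1 and Col4a2 difference was not tested. The genes themselves lie head to head on chromosome 8 with 22 bases in common, so a few reads may be shared.

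Col4a3 and Col4a4 lie head to head on chromosome 1, 71 bases apart, and together with Col4a5 make a collagen IV best known from kidney and lung. Col4a3 stood at 6.86, 10.1 and 8.29 CPM in VAS+H2O, 4.62, 5.43 and 5.52 in IMQ+H2O and 3.04, 2.30 and 3.51 in IMQ+XYF. The 3 groups did not overlap, with VAS+H2O highest and IMQ+XYF lowest. It fell in IMQ+XYF against VAS+H2O by 1.51 on the log2 scale, with a standard error of 0.22 (adjusted p = 0.0221, edgeR). The steps in between were −0.69 ± 0.21 by imiquimod (adjusted p = 0.128, edgeR) and −0.82 ± 0.21 by XYF (adjusted p = 0.364), neither called. The call was lost when VAS+H2O replicate 2 or 3, or IMQ+XYF replicate 1 or 3, was left out, with adjusted p between 0.0643 and 0.0909 (edgeR). Col4a3 shares 563 bases, 5.65% of its exon length, with C430014B12Rik on the opposite strand, and the counts are not stated to use strand, so reads of the pair cannot be told apart.

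Col4a4 stood at 13.7, 16.2 and 17.8 CPM in VAS+H2O, 10.1, 10.4 and 11.1 in IMQ+H2O and 7.20, 6.79 and 10.3 in IMQ+XYF. Its VAS+H2O libraries lay above all others. The log2 fold change was −0.59 ± 0.18 by imiquimod (adjusted p = 0.128, edgeR) and −0.98 ± 0.18 for IMQ+XYF against VAS+H2O, where the adjusted p of 0.0413 passed but the size did not.

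Col4a5 and Col4a6 lie head to head on chromosome X, 1308 bases apart, and their chains join in the collagen IV of the epidermal basement membrane and of smooth muscle. Col4a5 (chrX:141475385-141689234, plus strand, GRCm38) stood at 8.999, 12.9 and 13.0 CPM in VAS+H2O, 4.65, 5.77 and 4.29 in IMQ+H2O and 6.28, 5.63 and 5.20 in IMQ+XYF. Each control library was above each imiquimod-treated library, with or without XYF. It fell by imiquimod by 1.25 on the log2 scale, with a standard error of 0.20 (adjusted p = 0.0288, edgeR), and was called lower by 1.03 in IMQ+XYF against VAS+H2O (adjusted p = 0.0418). The change by XYF was 0.22 ± 0.19. The imiquimod call was lost without VAS+H2O replicate 2 or 3 or any IMQ+H2O library (adjusted p from 0.0731 to 0.127, edgeR), with log2 fold changes between −1.38 and −1.14. The call against VAS+H2O held in 1 of 15 alternatives, that without VAS+H2O replicate 1. In the others the adjusted p was above the limit (up to 0.145, without VAS+H2O replicate 3) or the size fell just short of 1.

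Col4a6 stood at 7.71, 17.6 and 13.4 CPM in VAS+H2O, 2.24, 3.86 and 3.65 in IMQ+H2O and 6.93, 2.77 and 3.44 in IMQ+XYF. VAS+H2O again lay above all other libraries, although IMQ+XYF replicate 1 came close to VAS+H2O replicate 1. edgeR gave a log2 fold change of −1.98 ± 0.43 by imiquimod (adjusted p = 0.063, edgeR), not called by edgeR but called by DESeq2 (adjusted p = 0.000348), and −1.55 ± 0.42 for IMQ+XYF against VAS+H2O (adjusted p = 0.095, edgeR). Without IMQ+XYF replicate 1 or 2, edgeR called the imiquimod change too (adjusted p of 0.0385 and 0.0373). The log2 ratio of Col4a5 to Col4a6 per kb was 0.47, −0.20 and 0.20 in VAS+H2O and 1.30, 0.83 and 0.48 in IMQ+H2O, which did not overlap (p = 0.1, exact permutation, adjusted p = 0.22). In IMQ+XYF it was 0.11, 1.27 and 0.84, over both ranges.

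Collagen VIII is a short-chain, network-forming collagen of vessel walls and of the membrane under the corneal endothelium, built from the chains of Col8a1 and Col8a2. Col8a1 (chr16:57624258-57754737, minus strand, GRCm38) had the largest change by imiquimod of the 36 genes. It stood at 1816, 1064 and 1360.3 CPM in VAS+H2O, 293, 144 and 242 in IMQ+H2O and 323, 726 and 449 in IMQ+XYF. The 3 groups did not overlap, with VAS+H2O highest and IMQ+H2O lowest. It fell by imiquimod by 2.64 on the log2 scale, with a standard error of 0.37 (adjusted p = 0.024, edgeR). The change by XYF was 1.14 ± 0.35 (adjusted p = 0.364) and IMQ+XYF against VAS+H2O was −1.50 ± 0.36 (adjusted p = 0.071), neither called by edgeR. DESeq2 called the last (adjusted p = 0.00131), as did edgeR without IMQ+XYF replicate 2 (adjusted p = 0.0264). The imiquimod change kept its direction in 15 of 15 alternatives, from −2.87 to −2.40 as libraries were left out. Its call was lost without any 1 of VAS+H2O replicates 1, 2 and 3 and IMQ+H2O replicates 2 and 3, with adjusted p from 0.0512 to 0.0981 (edgeR).

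Col8a2 stood at 270.3, 138 and 133 CPM in VAS+H2O, 57.0, 42.7 and 54.3 in IMQ+H2O and 89.0, 237 and 107 in IMQ+XYF. IMQ+H2O lay below both other groups in every library, and IMQ+XYF overlapped VAS+H2O. The fitted log2 change was −1.81 ± 0.41 by imiquimod (adjusted p = 0.0688, edgeR) and 1.49 ± 0.41 by XYF (adjusted p = 0.364), not called by edgeR, while DESeq2 called both (adjusted p of 0.000477 and 0.0212). Without IMQ+XYF replicate 2, the highest of its group, the Col8a2 change by XYF was 0.96. The partners did not keep a fixed proportion. The log2 ratio of Col8a1 to Col8a2 per kb was 1.94, 2.14 and 2.55 in VAS+H2O, above 1.56, 0.96 and 1.35 in IMQ+H2O and 1.06, 0.81 and 1.27 in IMQ+XYF (p = 0.1 for each against VAS+H2O, exact permutation, adjusted p = 0.22).

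The cartilage markers moved with collagen VIII. By imiquimod 14 of 14 tested markers were lower, with a median log2 fold change of −1.92. Of these, 3 were called by edgeR and 14 by DESeq2, beside 0.994% and 3.88% of all genes tested. By XYF 14 of 14 were higher, with a median of 1.52, none called by edgeR and 9 by DESeq2, which called 1.14% of the genes it tested. Their summed level was 3232, 1869 and 2449 CPM in VAS+H2O, 881, 582 and 793 in IMQ+H2O and 1079.9, 3358 and 1989 in IMQ+XYF. Matn1 was the only one of the 15 listed with 0 counts in a library. As for Col8a2, the highest library was VAS+H2O replicate 1 in the controls and IMQ+XYF replicate 2 in the XYF group. Their part in the collagen VIII difference was not tested.

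The stretches before the start sites of both pairs were read for short promoter motifs. Promoter windows from RefSeq on GRCm38.p6 matched 29 of the 36 genes, with 31 windows. Col8a1 and Col8a2 are shown because Col8a1 was called by imiquimod and Col8a2 encodes its partner chain. Col4a5 and Col4a6 are shown because Col4a5 was called by imiquimod and Col4a6 faces it. The other facing pairs, Col4a1 with Col4a2 and Col4a3 with Col4a4, are not shown. Each line runs 5′ to 3′ on the gene's strand and ends at the last base before the RefSeq start, or before the start of the annotated gene where that comes first. That took 1 base off Col8a2 and 34 bases off Col4a5. Capitals mark a GC box (GGGCGG) or a CCAAT box (CCAAT) on either strand.
Col8a1, chr16:57754738-57754987, minus strand: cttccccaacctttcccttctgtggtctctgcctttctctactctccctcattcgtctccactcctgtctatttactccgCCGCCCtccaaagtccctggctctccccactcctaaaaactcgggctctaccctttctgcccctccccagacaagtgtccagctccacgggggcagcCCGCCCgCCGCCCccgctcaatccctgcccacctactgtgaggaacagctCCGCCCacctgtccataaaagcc
Col8a2, chr4:126286544-126286792, plus strand: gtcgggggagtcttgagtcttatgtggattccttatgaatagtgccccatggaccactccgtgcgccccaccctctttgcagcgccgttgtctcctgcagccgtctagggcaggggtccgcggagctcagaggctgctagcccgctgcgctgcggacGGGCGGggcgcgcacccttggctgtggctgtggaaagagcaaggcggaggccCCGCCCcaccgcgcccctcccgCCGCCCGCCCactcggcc
Col4a6, chrX:141474077-141474326, minus strand: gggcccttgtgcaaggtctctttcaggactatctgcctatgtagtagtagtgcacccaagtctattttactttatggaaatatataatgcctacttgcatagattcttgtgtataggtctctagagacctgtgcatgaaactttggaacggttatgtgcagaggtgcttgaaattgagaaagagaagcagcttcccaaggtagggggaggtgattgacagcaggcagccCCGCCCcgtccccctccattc
Col4a5, chrX:141475169-141475384, plus strand: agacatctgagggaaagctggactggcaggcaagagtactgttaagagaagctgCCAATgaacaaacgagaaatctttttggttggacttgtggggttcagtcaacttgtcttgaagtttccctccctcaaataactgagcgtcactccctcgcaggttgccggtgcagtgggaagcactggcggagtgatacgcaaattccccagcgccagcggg
Both collagen VIII windows are GC-rich, at 60.8% and 69.9%, and hold GC boxes at 4 places each, of which the last 2 of Col8a2 overlap. The Col4a6 and Col4a5 stretches are at 47.6% and 52.3%, with 1 GC box in Col4a6 and 1 CCAAT box in Col4a5. The 250-base window of Col4a5 also holds 1 GC box, in the bases nearest the start that are not printed. Over all 32851 windows of 250 bases, 32.7% hold a GC box and 33.8% a CCAAT box, against 58.1% and 35.5% of the 31 collagen windows. The collagen windows are also richer in GC, with a median of 59.2% against 52.4% over all windows, and the shares were not adjusted for it. A TATA box (TATAAA) was in 12.4% of all windows and 9.68% of the collagen windows, those of Col3a1, Col13a1 and Col17a1. The SOX core (AACAAT) was in 9.42% of all windows and, among the collagens, in Col3a1 alone. These matches are letters in a window and were not tested against the levels.

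**Figure D3:**
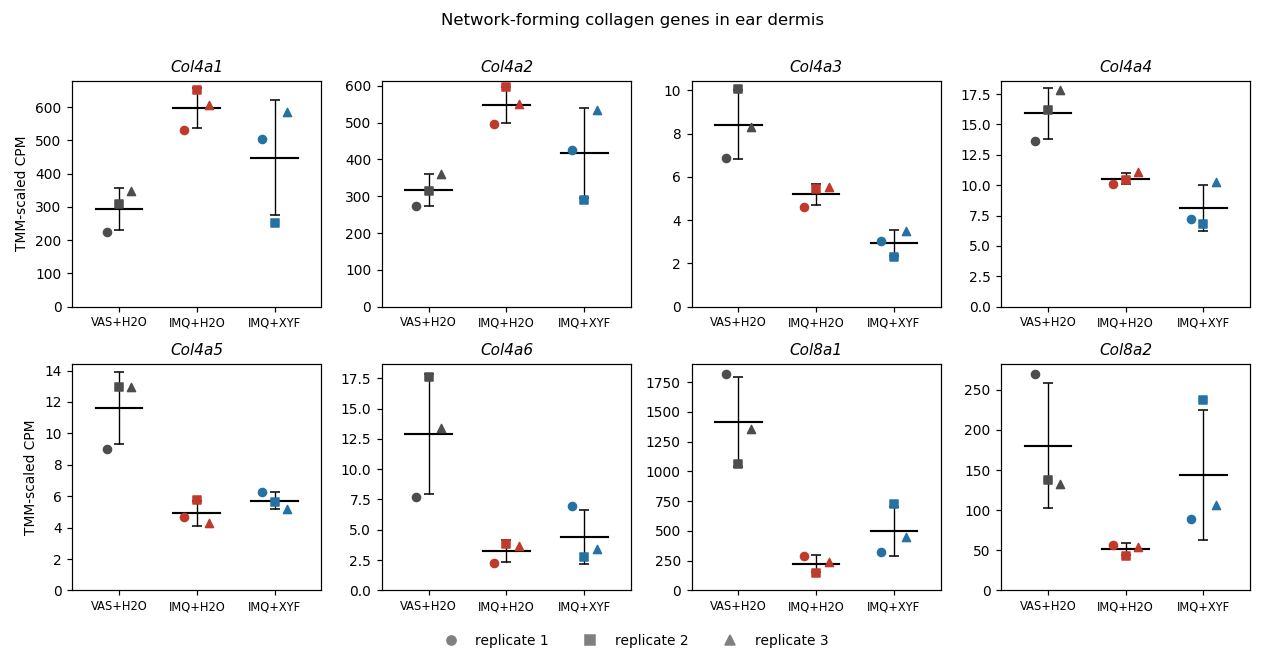
TMM-scaled CPM (y axis, from 0) of the 8 network-forming collagen genes in the 9 libraries, by group (x axis). Points are libraries, shaped by replicate number, and the line and bar are the mean and SD of 3 libraries. Col4a1 and Col4a2 are highest in IMQ+H2O, the other 6 genes are highest by mean in VAS+H2O, and Col8a1 has a mean of 1413 there against 226 in IMQ+H2O.

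The 3 main chains of beaded collagen VI, which surrounds cells with microfilaments, had tight levels in the control group and none was called. Col6a1 stood at 1359.6, 1376 and 1355 CPM in VAS+H2O, 704, 948 and 811 in IMQ+H2O and 791, 1268 and 1132 in IMQ+XYF. The control libraries lay close together and above all others. Col6a2 stood at 1117, 1091 and 1032 CPM in VAS+H2O, 525, 671 and 583 in IMQ+H2O and 627, 1113 and 919 in IMQ+XYF. Col6a3 stood at 667, 600.4 and 630.2 CPM in VAS+H2O, 317, 395 and 344 in IMQ+H2O and 412, 643 and 598 in IMQ+XYF. IMQ+H2O lay below VAS+H2O in every library for all 3 genes, and IMQ+XYF replicate 1 stayed near the IMQ+H2O libraries while replicates 2 and 3 were higher. By imiquimod the log2 fold changes were −0.73 ± 0.18, −0.86 ± 0.20 and −0.85 ± 0.17 (adjusted p of 0.0836, 0.0706 and 0.054, edgeR). DESeq2 gave adjusted p of 0.00778, 0.0028 and 0.000504, with sizes short of 1. By XYF they were 0.37 ± 0.18, 0.58 ± 0.20 and 0.65 ± 0.17, where Col6a2 and Col6a3 had an unadjusted p under 0.05 (adjusted p of 0.378 and 0.364, edgeR). Without IMQ+XYF replicate 2 they were 0.26, 0.41 and 0.55. Within IMQ+XYF, the cartilage marker sum (1079.9, 3358 and 1989 CPM) ranked the replicates as these 3 genes and Col5a2 did. Within IMQ+H2O (881, 582 and 793 CPM) it ranked them in the reverse order. The part of cartilage in these differences was not tested.

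The proportions of the collagen VI chains were the steadiest of the 11 pairs. Over the 9 libraries the log2 ratio of Col6a1 to Col6a2 per kb spanned 0.31 and that of Col6a3 to Col6a1 spanned 0.34, whereas Col8a1 to Col8a2 spanned 1.74 and Col5a2 to Col1a1 spanned 2.30. Within that narrow span, the ratio of Col6a3 to Col6a1 was −2.39, −2.43 and −2.37 in IMQ+XYF, above all 6 other libraries (p = 0.1 against either group, exact permutation, adjusted p = 0.22).

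The chains that can take the place of Col6a3 were scarce. Col6a6 stood at 6.65, 18.3 and 16.4 CPM in VAS+H2O, 4.37, 6.09 and 7.37 in IMQ+H2O and 1.63, 3.64 and 6.51 in IMQ+XYF. IMQ+XYF was below VAS+H2O in every library, though VAS+H2O replicate 1 and IMQ+XYF replicate 3 lay close together, and IMQ+H2O overlapped both. Its log2 fold change was −1.21 ± 0.52 by imiquimod (adjusted p = 0.229, edgeR) and −1.81 ± 0.52 for IMQ+XYF against VAS+H2O (adjusted p = 0.114), the last called by DESeq2 only (adjusted p = 0.00809). Col6a5 was between 0.142 and 3.67 CPM in the 9 libraries, with a log2 fold change of −1.81 ± 0.79 for IMQ+XYF against VAS+H2O (adjusted p = 0.268, edgeR). Col6a4 was below 1 CPM in every library, with as few as 5 counts, and had no unadjusted p of 0.05 in any comparison.

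Collagen VII, the anchoring fibril of the dermal-epidermal junction, has the single gene Col7a1, which stood at 130.4, 179 and 217 CPM in VAS+H2O, 140.0, 132 and 89.6 in IMQ+H2O and 121, 77.3 and 93.7 in IMQ+XYF. VAS+H2O replicate 1 lay within the IMQ+H2O range but above all of IMQ+XYF. On the log2 scale the change was −0.54 ± 0.24 by imiquimod, −0.31 ± 0.24 by XYF and −0.85 ± 0.25 for IMQ+XYF against VAS+H2O (adjusted p = 0.113, edgeR).

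Of the FACIT genes, Col16a1 came closest to a call by imiquimod. Its chain forms a collagen found with microfibrils in the upper dermis. It stood at 387, 311 and 381 CPM in VAS+H2O, 194, 219.6 and 177 in IMQ+H2O and 238, 303 and 305 in IMQ+XYF. The 3 groups did not overlap, with IMQ+XYF between the others. The log2 fold change was −0.87 ± 0.14 by imiquimod, with an adjusted p of 0.0316 that passed and a size that did not, and 0.52 ± 0.14 by XYF (adjusted p = 0.364, edgeR). Against VAS+H2O, IMQ+XYF was at −0.35 ± 0.14 (adjusted p = 0.236, edgeR).

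Col14a1 and Col12a1 encode FACIT chains that coat collagen I fibres. Col14a1 stood at 46.4, 86.3 and 126 CPM in VAS+H2O, 29.3, 46.6 and 51.2 in IMQ+H2O and 28.3, 26.8 and 49.0 in IMQ+XYF. VAS+H2O replicate 1 lay within the range of the other groups and its other libraries above them. edgeR gave a log2 fold change of −1.02 ± 0.38 by imiquimod (adjusted p = 0.18, edgeR) and −1.31 ± 0.39 for IMQ+XYF against VAS+H2O (adjusted p = 0.117), which DESeq2 called (adjusted p = 0.0157). Col12a1 ranged from 114 to 175 CPM in VAS+H2O, 77.7 to 133 in IMQ+H2O and 121 to 187 in IMQ+XYF, without an unadjusted p of 0.05 in any comparison. The log2 ratio of Col12a1 to Col14a1 per kb was 0.98, 1.05 and 0.81 in IMQ+XYF, above 0.18, −0.10 and −1.17 in VAS+H2O and 0.29, 0.39 and −0.13 in IMQ+H2O (p = 0.1 for each, exact permutation, adjusted p = 0.22).

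The other FACIT genes were low. Col20a1 stood at 11.55, 13.1 and 18.2 CPM in VAS+H2O, 7.27, 10.4 and 11.49 in IMQ+H2O and 6.20, 9.64 and 13.0 in IMQ+XYF, with IMQ+H2O just below VAS+H2O in every library and no unadjusted p of 0.05. Col22a1 and Col19a1 overlapped between IMQ+H2O and each other group. Col22a1, a collagen of muscle-tendon junctions, was between 0.473 and 16.8 CPM. Col19a1 was between 0.111 and 2.62 CPM, with as few as 4 counts.

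**Figure D4:**
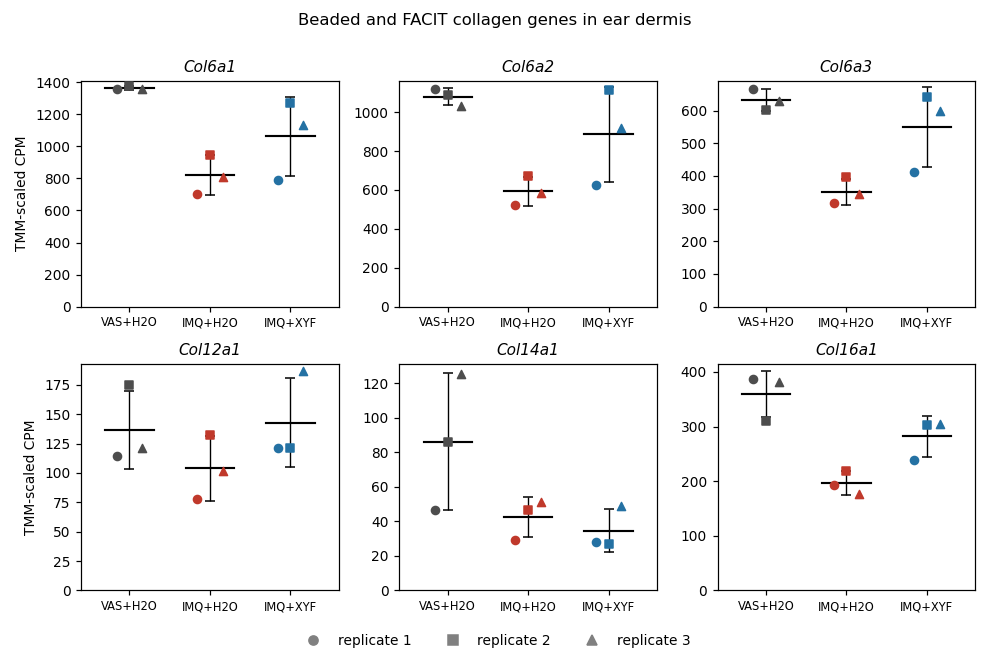
TMM-scaled CPM (y axis, from 0) of 3 beaded and 3 FACIT collagen genes in the 9 libraries, by group (x axis). Points are libraries, shaped by replicate number, and the line and bar are the mean and SD of 3 libraries. Col6a1, Col6a2, Col6a3 and Col16a1 have all IMQ+H2O libraries below all VAS+H2O libraries, while Col12a1 and Col14a1 overlap.

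Among the transmembrane collagens, Col17a1 encodes the hemidesmosome protein that holds basal keratinocytes to the basement membrane. It stood at 259, 571 and 475 CPM in VAS+H2O, 140.4, 224 and 124 in IMQ+H2O and 686, 169 and 220.4 in IMQ+XYF. IMQ+H2O lay below VAS+H2O in every library, and IMQ+XYF replicate 1 was the highest of all 9 while its other libraries were not. The log2 fold change by imiquimod was −1.42 ± 0.53 (adjusted p = 0.183, edgeR). The basal keratinocyte markers moved with it. Their sums were 2590.0, 4414 and 3429 CPM in VAS+H2O, 2032, 2746 and 2028 in IMQ+H2O and 7464, 2574 and 3877 in IMQ+XYF, with 5 of 6 lower by imiquimod, none of them called and none at 0. Their part in the Col17a1 difference was not tested.

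Col25a1, a transmembrane collagen known from neurons and from the innervation of muscle, stood at 6.23, 7.17 and 4.58 CPM in VAS+H2O, 4.51, 1.29 and 1.97 in IMQ+H2O and 4.95, 10.2 and 4.94 in IMQ+XYF. IMQ+H2O lay below both other groups in every library, though its replicate 1 came close to VAS+H2O replicate 3. The fitted log2 change was −1.22 ± 0.48 by imiquimod (adjusted p = 0.195, edgeR) and 1.38 ± 0.48 by XYF (adjusted p = 0.379). Col23a1 ranged from 56.4 to 100.5 CPM over the 9 libraries and Col13a1 from 7.22 to 17.1 CPM, with overlapping groups.

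The multiplexins Col15a1 and Col18a1 belong to vascular and epithelial basement membranes, and Col18a1 is the source of endostatin. Col18a1 stood at 79.1, 98.9 and 123 CPM in VAS+H2O, 136, 177 and 154 in IMQ+H2O and 119.5, 64.4 and 162 in IMQ+XYF. Every IMQ+H2O library was above every VAS+H2O library, at a log2 fold change of 0.63 ± 0.30 with no unadjusted p of 0.05. Col15a1 ranged from 63.6 to 132 CPM in VAS+H2O, 96.6 to 112 in IMQ+H2O and 42.3 to 117 in IMQ+XYF. In both genes IMQ+XYF replicate 2, the library lowest in endothelial markers, was lowest of all 9. Col26a1 stood at 1.29, 1.22 and 1.89 CPM in VAS+H2O, 2.38, 1.43 and 1.97 in IMQ+H2O and 1.06, 1.16 and 1.23 in IMQ+XYF, with IMQ+XYF below IMQ+H2O in every library and a log2 fold change by XYF of −0.74 ± 0.27 (adjusted p = 0.384, edgeR). Col28a1, a collagen of peripheral nerve, was between 27.1 and 53.3 CPM.

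Summed over the 36 genes, collagen RNA came to 16003, 23667 and 26850.3 CPM in VAS+H2O, 10049.7, 16785 and 16357 in IMQ+H2O and 11213, 10905 and 18379 in IMQ+XYF. The groups overlapped. The mean log2 difference was −0.63 by imiquimod (p = 0.3, two-sided exact permutation), −0.10 by XYF (p = 1.0, exact permutation) and −0.73 for IMQ+XYF against VAS+H2O (p = 0.2, exact permutation). Col1a1, Col1a2 and Col3a1 held between 40.8% and 69.0% of the sum. Without them the remaining 33 genes came to 8199, 8065 and 8541 CPM in VAS+H2O, 4631, 5630.1 and 5073 in IMQ+H2O and 5429, 6456 and 6738 in IMQ+XYF. Then every control library lay above every treated one, with a log2 difference of −0.70 by imiquimod (p = 0.1, exact permutation, the smallest possible). By XYF the difference turned to 0.28 (p = 0.2, exact permutation). With all 36 genes kept, the sign also turned without any 1 of IMQ+H2O replicates 2 and 3 and IMQ+XYF replicates 1 and 2, with differences of 0.0123 to 0.0336.

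**Figure D5:**
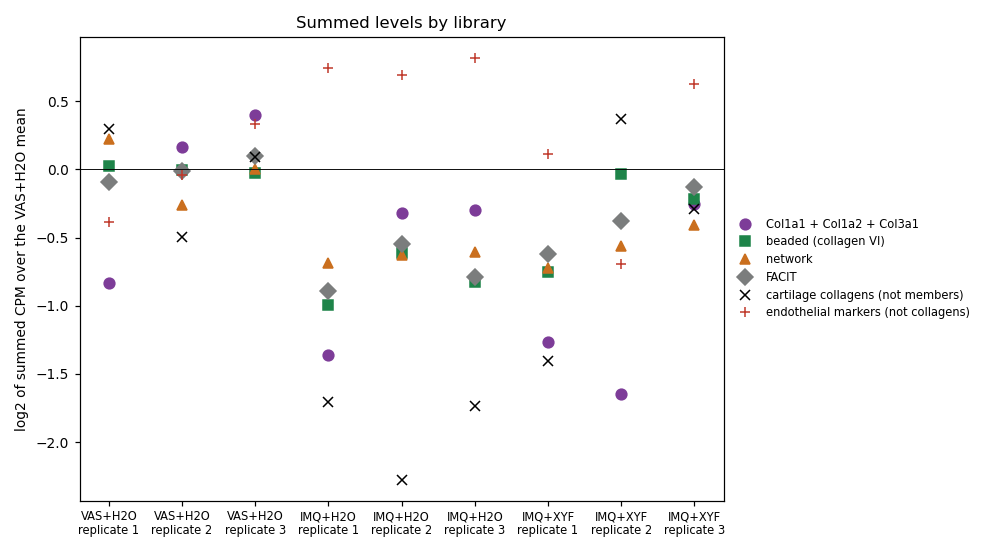
Log2 of the summed CPM of collagen groups and of 2 reference lists over the VAS+H2O mean (y axis) in each of the 9 libraries (x axis). Circles are Col1a1, Col1a2 and Col3a1 together, which vary most among the collagens within groups, and squares are beaded, triangles network and diamonds FACIT genes. Crosses are the 8 cartilage collagens and plus signs 6 endothelial markers, and in IMQ+XYF replicate 2 the cartilage collagens stand at 1706 CPM, above every other library, and collagens I and III at 4449 CPM, below every other.

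The 8 cartilage collagens that the choice left aside came to 1622, 934 and 1404 CPM in VAS+H2O, 404, 273 and 397 in IMQ+H2O and 498, 1706 and 1079.8 in IMQ+XYF. Their median log2 fold changes were −2.14 by imiquimod and 1.65 by XYF, where those of the 36 genes were −0.64 and −0.19.

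The genes that make and process collagen were lower by imiquimod more often than higher, 20 against 12 of 32, with a median log2 fold change of −0.24, none called by edgeR and 2 (Plod2 and Adamts3) called lower by DESeq2. Of all genes tested, edgeR called 0.994% and DESeq2 3.88%. An unadjusted p of 0.05 or lower was reached by 11 lower and 2 higher genes, beside 10.8% and 10.1% of all genes. Plod2, a lysyl hydroxylase that prepares collagen for cross-linking, had a mean of 29.5 CPM in VAS+H2O and 13.6 in IMQ+H2O, a log2 fold change of −1.11 ± 0.30 (adjusted p = 0.0968, edgeR, and 0.0127, DESeq2). P4ha2, a prolyl hydroxylase subunit needed for a stable helix, had a log2 fold change of −0.82 ± 0.18 (adjusted p = 0.0655, edgeR), and Adamts3, a procollagen N-propeptidase, one of −1.07 ± 0.31 (adjusted p = 0.111, edgeR, and 0.023, DESeq2). By XYF 20 of the 32 were higher and 12 lower, with a median of 0.08 and none called by either tool. At an unadjusted p of 0.05, 7 were higher and 2 lower, beside 6.35% and 5.39% of all genes.

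Of the collagen receptors and uptake genes, 9 of 10 could be tested. By imiquimod edgeR called 1 (Itga11) and DESeq2 called 2 (Itga11 and Mrc2), beside 0.994% and 3.88% of all genes tested. Itga11, the alpha chain of the fibroblast integrin that binds collagen I, stood at 39.1, 36.8 and 33.1 CPM in VAS+H2O, 18.4, 15.6 and 14.5 in IMQ+H2O and 12.6, 19.0 and 13.7 in IMQ+XYF. The control libraries lay above the 6 others. Itga11 fell by imiquimod by 1.17 on the log2 scale (adjusted p = 0.0247, edgeR) and was called lower by 1.27 in IMQ+XYF against VAS+H2O (adjusted p = 0.0208), with a change by XYF of −0.10 ± 0.17. The imiquimod call was lost without any 1 of VAS+H2O replicates 1, 2 and 3 and IMQ+H2O replicates 2 and 3 (adjusted p from 0.0619 to 0.106, edgeR). The call against VAS+H2O was lost without any 1 of VAS+H2O replicates 1, 2 and 3 and IMQ+XYF replicates 1 and 3 (adjusted p from 0.0501 to 0.0846, edgeR), and with only the 6 libraries compared (adjusted p = 0.0598, edgeR). Both Itga11 calls were also lost with a block for replicate number (adjusted p = 0.0522 for each, edgeR). Mrc2, the receptor by which cells take up collagen for degradation, stood at 208, 111 and 135 CPM in VAS+H2O, 69.3, 59.4 and 76.5 in IMQ+H2O and 99.9, 224 and 125 in IMQ+XYF. IMQ+H2O lay below both other groups, and IMQ+XYF replicate 2 was the highest library. Its log2 fold change was −1.15 ± 0.32 by imiquimod (adjusted p = 0.107, edgeR) and 1.13 ± 0.32 by XYF (adjusted p = 0.364), neither called by edgeR, while DESeq2 called both (adjusted p of 0.0162 and 0.0411). Without IMQ+XYF replicate 2 the Mrc2 change by XYF was 0.74, and edgeR called that by imiquimod (adjusted p = 0.0437).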

How the data were processed

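RNA of 9 mouse ear dermis libraries was analysed from the deposited table of whole-number read counts per Ensembl gene, which the authors did not normalize. Per the study's methods and the submitters' processing notes, reads were aligned with STAR 2.5 to GRCm38 and genes tested with DESeq2 (DESeq 1.22.1 in the notes). The counting tool, its use of strand and of reads with several alignments are not given in the sources used here, and the labels call the kit strand-specific where the methods name a kit version without that word. The 52550 genes, 16554 of them at 0 throughout, were filtered by filterByExpr, which left 22430, and scaled by TMM. All libraries entered 1 edgeR 4.0.16 quasi-likelihood fit (R 4.3.3, coefficient per group, common biological coefficient of variation 0.296) with Benjamini-Hochberg adjustment over all tested genes. Standard errors were derived from each log2 fold change and its F statistic. Sums and chain ratios were compared by two-sided exact permutation. Exon lengths and positions are from GENCODE vM21. Of 155 listed symbols, 154 matched by their own name and 1 by another (Mia2).

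Fold changes, errors and adjusted p are given for called genes, genes with an unadjusted p of 0.05 or lower, and always Col1a1, Col1a2 and Col3a1. Genes beyond this rule, such as Col18a1, are given by level or named after their values were seen. The members and lists were chosen with earlier results of these data known. Replicates of a group differed by more than counting error (chi-squared of 34.0 to 196 per degree of freedom). Counts of 0 allow up to 3 counts, and this floor covers counting error only. The alternatives were DESeq2 1.42.0, other scalings, no filter, only the libraries compared, a replicate block, other thresholds and each library left out.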

Additional observations from a re-analysis of the deposited data

How the results depend on the processing

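Calls by imiquimod were fewer over all genes when any VAS+H2O or IMQ+H2O library was left out, and Col6a4, Col6a5 and Col19a1 had few counts in some libraries and a wide spread between replicates. Of the collagens, 2 were called by imiquimod, 0 by XYF and 2 for IMQ+XYF against VAS+H2O. DESeq2 called 5, 1 and 6. Fits of only the 6 libraries compared called 5 by imiquimod and 0 for IMQ+XYF against VAS+H2O, and an adjusted p of 0.01 left 0 in both. With DESeq2 size factors, total counts only or no filter in edgeR, 1 was called for IMQ+XYF against VAS+H2O. Leaving out 1 library gave 0 to 5 by imiquimod and 0 to 2 for IMQ+XYF against VAS+H2O. Over all genes, calls by imiquimod numbered 223, and 945 by DESeq2, 496 with the 6 libraries, 13 at an adjusted p of 0.01 and 25 to 455 with a library left out. By XYF they numbered 2, and 223 by DESeq2, 1 with total counts, 1 with the 6 libraries, 0 at an adjusted p of 0.01 and 0 to 4 with a library left out. For IMQ+XYF against VAS+H2O they numbered 270, and 701 by DESeq2, 33 with the 6 libraries, 453 without a limit on size, 1 at an adjusted p of 0.01 and 12 to 592 with a library left out. The cause of these differences was not tested. Replicate numbers recur across groups, but same-numbered libraries did not deviate together (r from −0.18 to 0.12). Differently numbered libraries of different groups had r from −0.16 to 0.28. These values show no pairing by number, and they cannot exclude a shared batch. A replicate block called 0 collagens by imiquimod and 1 (Col5a1) for IMQ+XYF against VAS+H2O, and 86, 0 and 54 of all genes in the 3 comparisons. The summed level by XYF turned to 0.28 without Col1a1, Col1a2 and Col3a1 and ran from −0.34 to 0.0336 with a library left out, and Col3a1 by XYF ran from −0.80 to 0.13, above 0 without IMQ+H2O replicate 3 or IMQ+XYF replicate 2. With a library left out, log2 chain ratios that changed sign ran from −0.66 to 0.0358 (Col5a2 to Col1a1) and −0.18 to 0.0228 (Col4a3 to Col4a4) by imiquimod, −0.15 to 0.0670 (Col4a1 to Col4a2) and −0.40 to 0.19 (Col4a5 to Col4a6) by XYF, and −0.15 to 0.11 (Col1a1 to Col1a2) and −0.0593 to 0.0771 (Col3a1 to Col1a1) for IMQ+XYF against VAS+H2O.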
